A study of Mus musculus with 116 samples.

Results

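A set of 10 integrin genes was followed through RNA libraries of 2 mouse cell lines, to see which alpha-beta receptor pairs the transcripts of each line would allow. They are 4 beta subunits (Itgb1, Itgb3, Itgb4 and Itgb5) and 6 alpha subunits (Itga1, Itga2, Itga3, Itga5, Itga6 and Itgav). The genes were listed by name and not by a rule on their values, although earlier results of these data were known. All 10 of them were present among the 40202 gene symbols of the count files. The C10 line is labelled alveolar type II epithelium, the surfactant-making cell of the lung, and the SVEC line is labelled endothelium, the inner lining of vessels. Cells of both lines were untreated and grown by standard culture, and no genotype, passage or separate culture is named for either. Libraries were made with nanoSPLITS, which lyses 1 or a few cells in a nanodroplet and divides the droplet, leaving separate portions for RNA and for protein. Only RNA was analysed here, from full-length cDNA. The 116 libraries comprised 8 libraries of 1 C10 cell, 6 of 3 C10 cells and 6 of 10 C10 cells, together called the input series, and single cells of C10 (48 libraries, of which 46 held at least 1000 counts and were used) and of SVEC (n = 48).

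Integrins are cell surface receptors that bind the extracellular matrix outside the cell and the actin or keratin cytoskeleton inside it. Each receptor is a heterodimer of 1 alpha and 1 beta chain, and a chain reaches the surface only with a partner, so the ligand a cell can bind depends on which chains it makes together. Itgb1 partners with many alpha chains, whereas Itgb4 partners with Itga6 alone. Itga5 and Itgav belong to the class that reads the RGD motif of fibronectin and vitronectin, Itga3 and Itga6 bind laminins of the basement membrane, and Itga1 and Itga2 bind collagens.

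Depth differed between the lines. Total counts over genes ran from 83188 to 5911755 in the C10 single cells (median 1881704) and from 5122 to 2831907 in the SVEC single cells (median 434945), and from 430798 to 15385625 in the input series. Levels are given as CPM, the counts a gene would have in a library of 1000000 counts. Since each single-cell library is 1 cell and no separate cultures are named, a line is 1 sample. The level of a line is therefore its summed counts over its summed totals, its intervals cover counting error only, and no p-value is given between the lines. To set shares of cells side by side at 1 depth, each library was also thinned to 100000 counts, which kept 45 C10 and 42 SVEC cells. Of the 10 endothelial markers looked up, 5 (Kdr, Tie1, Emcn, Vwf and Cldn5) were at 0 in every single cell of both lines. The summed CPM of all 10 ran from 0 to 48.3 over C10 cells (median 0.596) and from 0 to 138 over SVEC cells (median 0). Of 10 alveolar epithelial markers, 5 (Sftpa1, Sftpb, Sftpc, Sftpd and Nkx2-1) were at 0 in every single cell, while the epithelial cadherin gene Cdh1 was counted in 24 of 46 C10 cells and 1 of 48 SVEC cells. Flt1, an endothelial receptor gene, was counted in 8 SVEC cells (27.5 CPM pooled) and in 13 C10 cells (0.594 CPM). Pecam1 was counted in 12 C10 and 5 SVEC cells, Tek in 12 and 3, Eng in 10 and 3 and Cdh5 in 1 of each. Pooled, Tek (0.564 and 0.103 CPM) and Eng (2.42 and 0.620 CPM) were higher in C10. Pecam1 was nearly equal (0.2215 and 0.2068 CPM). Cdh5 was higher in SVEC (0.0101 and 0.172 CPM), on 1 count in C10 and 5 in SVEC. Of the other alveolar markers, Abca3 was counted in 14 C10 and 6 SVEC cells and Lamp3 in 10 and 7. Napsa was counted in 2 cells of each line and Epcam in 1 C10 cell. Most defining markers of either labelled type were thus absent or rare in its line. The mesenchymal genes Dcn (pooled 2470 and 1219 CPM in C10 and SVEC) and Col1a1 (481 and 334 CPM) were high in both lines. Of the other 5 mesenchymal markers, Lum and Thy1 were at 0, Pdgfra was counted in 9 C10 and 10 SVEC cells, Pdgfrb in 4 and 9, and Col1a2 in 6 and 10. The summed CPM of the 7 ran from 476 to 14199.5 in C10 cells (median 2222) and from 0 to 9852 in SVEC cells (median 1050.0). Of 6 leukocyte markers, 3 were at 0, Ptprc and Cd3e among them, while Lyz2 was counted in 2 C10 and 7 SVEC cells, Cd68 in 4 of each and Itgam in 2 C10 cells. Their summed CPM had a median of 0 in both lines and reached 80.1 in C10 and 276 in SVEC cells. The part of these markers in the integrin levels was not tested.

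Promoter sequences are shown for 4 members around which the comparison of the lines turned, namely the shared beta chain gene Itgb1 and the alpha chain genes Itga3, Itgav and Itga1, which were the farthest apart between the lines among the alpha genes. They were chosen after their values were seen. Each is 300 bases around the annotated start in RefSeq on GRCm38.p6, where 7 of the 10 members had an entry, and is written 5′ to 3′ along the gene. Capitals mark the GC box GGGCGG or its reverse complement CCGCCC, a motif known to bind Sp factors. The windows are chr8:128685404-128685703 on the plus strand for Itgb1, chr11:95076665-95076964 on the minus strand for Itga3, chr2:83724147-83724446 on the plus strand for Itgav and chr13:115101915-115102214 on the minus strand for Itga1.
Itgb1: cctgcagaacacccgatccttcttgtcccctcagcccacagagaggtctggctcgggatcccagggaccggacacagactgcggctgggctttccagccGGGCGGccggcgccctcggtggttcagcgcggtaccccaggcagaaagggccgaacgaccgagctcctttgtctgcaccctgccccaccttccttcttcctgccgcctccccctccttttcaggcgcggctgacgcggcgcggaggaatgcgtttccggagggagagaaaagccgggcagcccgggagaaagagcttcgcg
Itga3: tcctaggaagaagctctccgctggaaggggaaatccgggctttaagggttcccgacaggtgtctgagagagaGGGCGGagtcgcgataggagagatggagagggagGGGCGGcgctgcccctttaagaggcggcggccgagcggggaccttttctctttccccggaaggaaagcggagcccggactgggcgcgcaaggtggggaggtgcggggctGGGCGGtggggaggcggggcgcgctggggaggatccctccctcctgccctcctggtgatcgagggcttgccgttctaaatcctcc
Itgav: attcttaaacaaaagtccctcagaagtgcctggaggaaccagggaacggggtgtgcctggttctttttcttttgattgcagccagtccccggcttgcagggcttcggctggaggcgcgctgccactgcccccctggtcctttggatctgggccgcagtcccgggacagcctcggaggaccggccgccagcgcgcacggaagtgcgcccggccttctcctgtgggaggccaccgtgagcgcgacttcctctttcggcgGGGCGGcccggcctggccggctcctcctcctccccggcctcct
Itga1: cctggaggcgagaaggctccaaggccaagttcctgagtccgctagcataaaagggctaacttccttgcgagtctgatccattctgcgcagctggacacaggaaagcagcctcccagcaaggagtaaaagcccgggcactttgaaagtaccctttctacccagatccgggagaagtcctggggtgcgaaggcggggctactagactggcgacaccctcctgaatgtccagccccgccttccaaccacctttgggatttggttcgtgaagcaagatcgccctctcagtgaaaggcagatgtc
RefSeq lists a second Itga3 window, chr11:95069149-95069448, which is not printed and held 1 GC box and 5 CG dinucleotides. The Itga3 window shown held 3 GC boxes, the Itgb1 and Itgav windows 1 each and the Itga1 window 0. Among all 32851 promoter windows of the same length, 35.7% held at least 1. The 4 windows held 27 (Itgb1), 24 (Itga3), 24 (Itgav) and 12 (Itga1) CG dinucleotides, against a median of 7 over all windows. The letters TATAAA were found in none of the 4. A match here describes the letters of the window and is not a measured site.

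Among the beta chains, Itgb1 was the most widely counted in both lines and Itgb5 came next. Itgb1 was counted in 44 of 46 C10 cells and 35 of 48 SVEC cells. In C10 cells it lay between 0 and 1172 CPM with a median of 189, and in SVEC cells between 0 and 1376 CPM with a median of 172. The cells of the lines overlapped over the whole range. The pooled levels were 266 CPM in C10 (exact Poisson 95% interval 263 to 269) and 286 CPM in SVEC (280 to 293), a log2 difference of -0.11 for C10 over SVEC. That difference changed sign with the processing, from -0.12 with libraries of at least 100000 counts to 0.10 with every library weighted equally, and SVEC replicate 19 alone held 26.8% of the SVEC counts of Itgb1. At matched depth it was counted in 91.1% of C10 and 73.8% of SVEC cells.

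Itgb5, which pairs with Itgav as a vitronectin receptor, was counted in 32 of 46 C10 cells and 14 of 48 SVEC cells. It ranged from 0 to 374 CPM over C10 cells (median 7.39) and from 0 to 582 CPM over SVEC cells (median 0), so the ranges overlapped although most SVEC cells had no count. The pooled levels were 49.6 CPM in C10 and 31.9 CPM in SVEC, 1.55-fold higher in C10 (interval 1.45 to 1.67). At 100000 counts it was counted in 53.3% of C10 cells (exact binomial 95% interval 37.9 to 68.3) and 28.6% of SVEC cells (15.7 to 44.6).

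Itgb3, the beta chain of the other common vitronectin receptor of Itgav, was rare in both lines. It was counted in 3 of 46 C10 cells and 4 of 48 SVEC cells, at pooled levels of 1.09 and 3.41 CPM. A single cell carried most of each sum, with C10 replicate 32 holding 77.8% of the C10 counts and SVEC replicate 41 holding 54.5% of the SVEC counts. Itgb4, the hemidesmosomal chain with a long cytoplasmic tail, gave 4 counts in 3 C10 cells and 2 counts in 1 SVEC cell. Itgb4 shares its locus with Galk1 and B230344G16Rik, and the strand setting of the counting is not given in the sources used here, so its few reads are uncertain. Small annotated genes also overlap Itgav (Dnmt3l-ps1), Itga5 (Mir6963) and Itga2 (Gm34845).

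**Figure D1:**
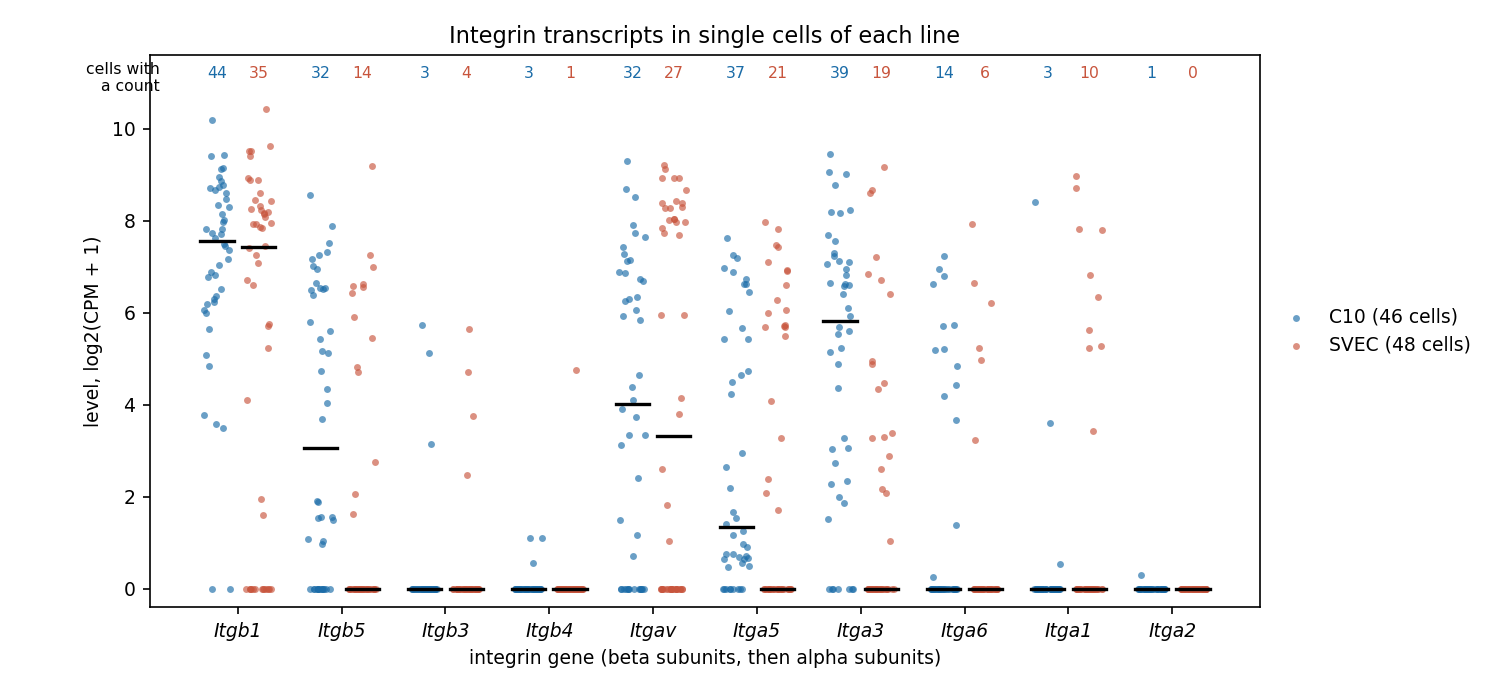
Level of each integrin gene in every single cell as log2(CPM + 1), for 46 C10 cells (blue) and 48 SVEC cells (red); bars are medians and the numbers on top are cells with at least 1 count. Itgb1 covers the same range in both lines, Itga3 is counted in 39 C10 and 19 SVEC cells, and Itga2 in 1 cell.

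Among the alpha chains, the laminin receptor gene Itga3 was the one set apart in C10. It was counted in 39 of 46 C10 cells and 19 of 48 SVEC cells. C10 cells ranged from 0 to 701 CPM with a median of 55.3, and SVEC cells from 0 to 579 CPM with a median of 0. The ranges overlapped, but the upper quartile of SVEC cells began at 8.98 CPM and that of C10 cells at 138 CPM. Pooled, Itga3 levels were 86.1 CPM for C10 and 28.0 CPM for SVEC, 3.07-fold higher in C10 (interval 2.86 to 3.31). The fold stayed between 2.72 and 4.10 when any 1 of the 94 libraries was left out, lowest without C10 replicate 15 and highest without SVEC replicate 26. Over the 7 alternatives the log2 difference ran from 1.39 (thinned to 100000 counts) to 2.89. The latter is the median difference in log2(CPM + 1) between same-numbered cells, a value per cell and not a pooled fold. Cells with a count made up 71.1% of C10 (55.7 to 83.6) and 28.6% of SVEC (15.7 to 44.6) at matched depth.

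Itga6, the other laminin-binding chain and the only partner of Itgb4, was counted in 14 of 46 C10 cells and 6 of 48 SVEC cells. Its median was 0 in both lines, with the highest cells at 149 CPM in C10 cells and 244 CPM in SVEC cells. The pooled levels of 16.4 CPM in C10 and 13.6 CPM in SVEC were 1.20-fold apart, and the ratio of C10 to SVEC was 0.947 without C10 replicate 30.

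In the RGD-binding class the pooled levels were higher in SVEC. Itgav, which can pair with Itgb1, Itgb3 or Itgb5, was counted in 32 of 46 C10 cells and 27 of 48 SVEC cells. Among cells with a count the median was 262 CPM in SVEC and 76.5 CPM in C10. Over all cells the range was 0 to 628 CPM in C10 (median 15.2) and 0 to 589 CPM in SVEC (median 9.01). Pooled, Itgav levels were 104 CPM for C10 and 212 CPM for SVEC, 2.04-fold higher in SVEC. This value sat at the 2-fold limit. It was 1.86 with every library weighted equally, and the median log2 difference between same-numbered cells was 0. Leaving out any 1 of 16 libraries took the fold below 2. These were 8 SVEC libraries (replicates 4, 11, 17, 19, 25, 37, 41 and 43) and 8 C10 libraries (replicates 2, 11, 17, 28, 41, 42, 44 and 47). The lowest was 1.89 without SVEC replicate 25.

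Itga5, the fibronectin receptor chain that pairs with Itgb1 alone, was counted in more cells of C10 (37 of 46) than of SVEC (21 of 48) but at low counts, since 21 C10 cells and 17 SVEC cells held at least 5. C10 cells ranged from 0 to 198 CPM (median 1.52) and SVEC cells from 0 to 250.1 CPM (median 0). The pooled level was 28.5 CPM in C10 and 47.5 CPM in SVEC, 1.67-fold higher in SVEC, or 1.18-fold with every library weighted equally. The median log2 difference between same-numbered cells, in which a cell with no count enters as 0, had the other direction (0.66 for C10 over SVEC). The share of cells with a count was 44.4% in C10 and 38.1% in SVEC at matched depth, with intervals of 29.6 to 60 and 23.6 to 54.4.

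The 2 collagen receptor genes of the set, Itga1 and Itga2, were scarce. Itga1 was counted in 3 of 46 C10 cells and 10 of 48 SVEC cells. In C10 it was at 338 CPM in replicate 23, which held 78.6% of the line's counts of Itga1, at 11.06 CPM in replicate 36 and at 0.445 CPM in replicate 8. The 10 SVEC cells with a count ran from 9.77 to 504 CPM, so the cells with a count overlapped. The pooled levels were 1.88 CPM in C10 and 49.7 CPM in SVEC, 26.4-fold higher in SVEC. That fold was 123 without C10 replicate 23, 16.9 without SVEC replicate 41 and 4.65 with libraries weighted equally, so its size was not fixed by these cells although its direction was SVEC in each. Itga1 was counted in too few cells of either line for the rule used over all genes, which asked for a count in 25% or more of a line's cells. Pelo, a gene within the Itga1 locus, was at 0 in all 94 single cells. With the strand setting not given, this 0 does not show to which gene reads of the shared stretch were assigned. The Itga1 counts are therefore uncertain as well. Itga2 gave 1 count in 1 C10 cell and 0 counts in 48 SVEC cells, which allows a share of SVEC cells with a count of up to 6.25% (3 of 48) or, by the exact binomial interval, 7.4%.

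Of the 10 integrin genes, 6 met that rule (Itgb1, Itgb5, Itgav, Itga5, Itga3 and Itga6). One of the 6, Itga3, was at least 2-fold higher in C10, where 19.1% of all 9303 tested genes were. One, Itgav, was at least 2-fold higher in SVEC, where 17.9% of the tested genes were. The median log2 difference of C10 over SVEC was 0.08 over the 6 and -0.0028 over all tested genes.

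Compared per kilobase of exon, which sets genes of different length on 1 scale, Itgb1 stood above every alpha chain. In C10 the pooled levels per kb ran from Itgb1 at 65.2 CPM per kb through Itga3 (15.1), Itgb5 (14.0), Itgav (9.69), Itga5 (5.78) and Itga6 (1.81) to Itgb3 (0.184), Itga1 (0.101), Itgb4 (0.00574) and Itga2 (0.00141). In SVEC they ran from Itgb1 at 70.2 CPM per kb through Itgav (19.7), Itga5 (9.63), Itgb5 (8.99), Itga3 (4.91), Itga1 (2.67) and Itga6 (1.51) to Itgb3 (0.578) and Itgb4 (0.00983), with Itga2 at 0. Over cells the SD of CPM exceeded the mean for every gene with a count in the line except Itgb1 in C10 (mean 247, SD 233, n = 46), so neighbours in either order were not separated by more than their spread. The summed alpha level was 0.498 of the Itgb1 level per kb in C10 and 0.548 in SVEC, and Itgb1 made up 82.2% of the summed beta level in C10 and 88% in SVEC.

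The laminin-binding share of the alpha level was larger in C10 than in SVEC single cells, and the RGD-binding share smaller. In C10, Itga3 made up 46.5% of the summed alpha level per kb, Itgav 29.8%, Itga5 17.8%, Itga6 5.58% and Itga1 0.312%. In SVEC, Itgav made up 51.3%, Itga5 25%, Itga3 12.8%, Itga1 6.95% and Itga6 3.92%. The laminin-binding chains together came to 52% in C10 and 16.7% in SVEC, and the RGD-binding chains to 47.6% and 76.4%. Leaving out any 1 library kept the laminin-binding share between 49% and 56.9% in C10 and between 14.1% and 18.3% in SVEC. Neither class led firmly in C10, since without replicate 15 the RGD-binding share was 50.7% and the laminin-binding share 49%. In the input series the laminin-binding share was 43.4% at 1 cell, where the RGD-binding share was 56.6%, and 60.8% at 3 cells and 52.7% at 10 cells. With every cell weighted equally it was 60.9% in C10 and 26.5% in SVEC. The share of Itga1 and Itga2 in C10 rested mostly on 1 cell, being 0.316% with C10 replicate 23 and 0.0721% without it. In SVEC it was 6.95%, or 4.68% without replicate 41. All these shares cover only the 6 alpha chains of the set. Alpha chains outside it were left out, such as Itga11, a collagen receptor chain counted in 23 of 46 C10 cells (2.49 CPM). Itga7, counted in 3 C10 cells (5.73 CPM), was left out as well.

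**Figure D2:**
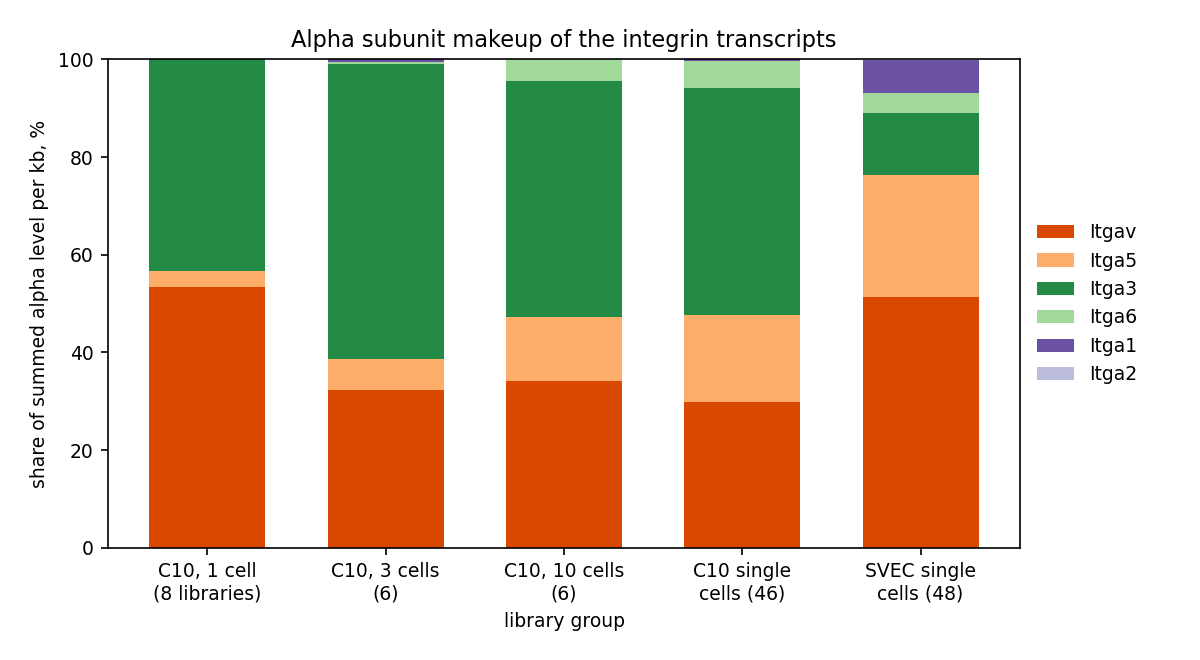
Share of each alpha chain in the summed alpha level per kilobase of exon (percent), from counts pooled over the libraries of each of the 5 groups. Itgav and Itga5 (orange) fill 76.4% of the SVEC bar and 47.6% of the C10 single-cell bar, where Itga3 and Itga6 (green) fill 52%.

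The same order was seen cell by cell. Every C10 cell had a count of at least 1 alpha chain, and the alpha chain with the highest level per kb was Itga3 in 23 of the 46, Itgav in 10, Itga5 in 9 and Itga6 in 4. Of the 39 SVEC cells with an alpha count, Itgav led in 19, Itga5 in 11, Itga3 in 5, and Itga6 and Itga1 in 2 each. At matched depth Itga3 led in 19 of 42 C10 cells and Itgav in 15 of 34 SVEC cells.

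Which receptor a cell could assemble was then read from the 9 known pairs among these genes, scoring a pair where both transcripts had at least 1 count in the same library. Such a score says that both RNAs were sampled together and says nothing of protein at the surface. In C10 the pair scored most often was Itga3 with Itgb1, a laminin receptor, in 38 of 46 cells (82.6%, exact binomial 95% interval 68.6 to 92.2), against 14 of 48 SVEC cells (29.2%, 17 to 44.1). The fibronectin receptor pair Itga5 with Itgb1 was scored in 35 C10 cells (76.1%) and 16 SVEC cells (33.3%). In SVEC the leading pair was Itgav with Itgb1, in 22 of 48 cells (45.8%, 31.4 to 60.8), which was scored in 31 C10 cells (67.4%).

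Depth moved these shares, so they were also read at 100000 counts. Itga3 with Itgb1 was then scored in 66.7% of C10 cells (51 to 80) and 21.4% of SVEC cells (10.3 to 36.8), and these intervals did not overlap. Such binomial intervals cover the drawing of cells within a line and no spread between cultures. They are a description and not a test between the lines. The intervals did overlap for Itgav with Itgb1, at 62.2% (46.5 to 76.2) and 38.1% (23.6 to 54.4). Those for Itga5 with Itgb1 overlapped as well, at 40% (25.7 to 55.7) and 28.6% (15.7 to 44.6), a smaller gap than that pair had at full depth.

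Of the vitronectin receptor pairs, Itgav with Itgb5 was the common one. It was scored in 23 of 46 C10 cells (50%) and 11 of 48 SVEC cells (22.9%), and in 33.3% and 16.7% at matched depth. Itgav with Itgb3 was scored in 2 C10 cells and 4 SVEC cells. Itga6 with Itgb1 was scored in 14 C10 cells (30.4%) and 5 SVEC cells (10.4%), or 22.2% and 9.52% at matched depth.

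The collagen receptor pair Itga1 with Itgb1 was the only one of the 9, beside Itgav with Itgb3, scored in more SVEC than C10 cells. It was found in 9 of 48 SVEC cells (18.8%, 8.95 to 32.6) and 2 of 46 C10 cells (4.35%, 0.531 to 14.8), and at matched depth in 16.7% and 2.22%, with intervals that overlapped (6.97 to 31.4 and 0.0562 to 11.8). The hemidesmosome pair Itga6 with Itgb4 was scored in 2 C10 cells, neither with 5 counts of both chains, and in 0 of 48 SVEC cells, which allows a share of up to 6.25% (3 of 48) or, by the exact binomial interval, 7.4%. Itga2 with Itgb1 was scored in 1 C10 cell on a single count of Itga2.

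**Figure D3:**
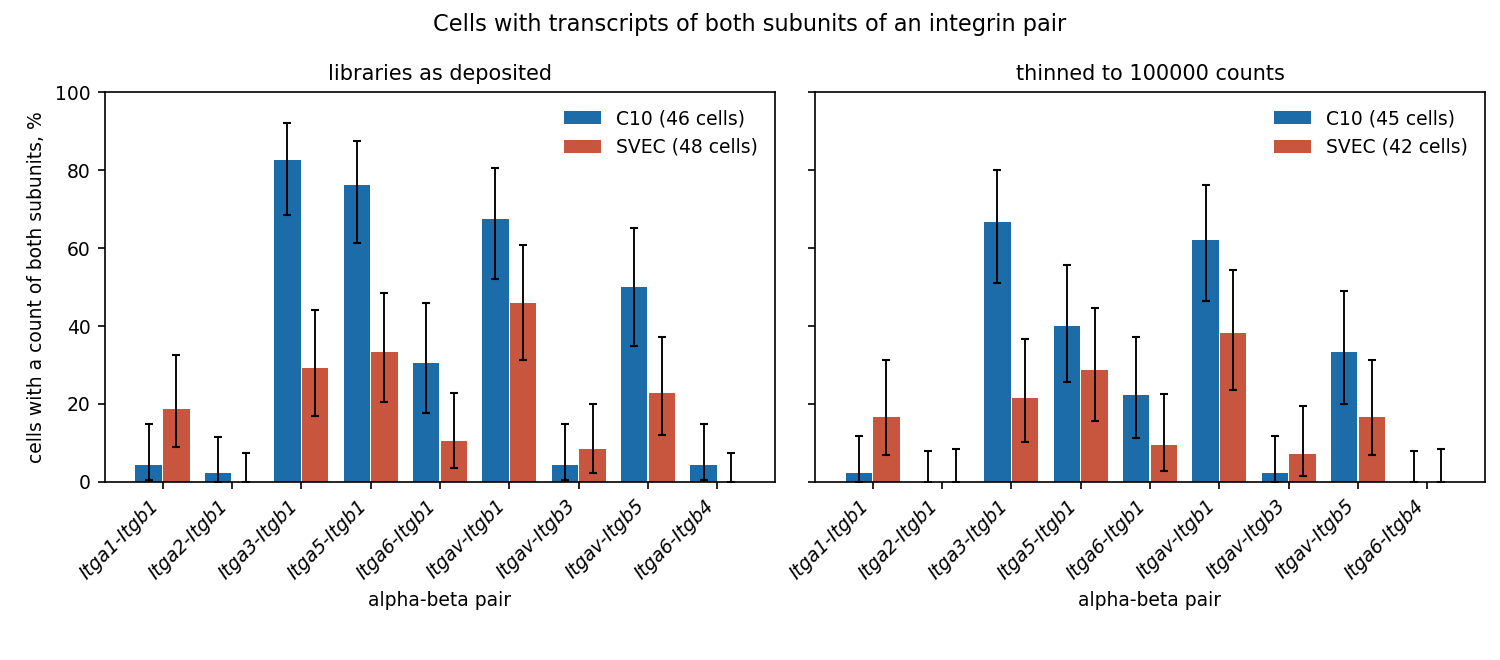
Percent of single cells with at least 1 count of both chains of each pair, at deposited depth (left; 46 C10, 48 SVEC cells) and after thinning to 100000 counts (right; 45 and 42); bars are shares and whiskers exact binomial 95% intervals. Itga3 with Itgb1 keeps separate whiskers on both sides, at 82.6% against 29.2% and 66.7% against 21.4%. The whiskers cover the drawing of cells within a line only.

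Pairs added up differently per cell. A C10 cell scored a median of 4 of the 9 pairs and a SVEC cell 1, and 2 C10 and 15 SVEC cells scored none. At matched depth the medians were 2 and 1, with none in 7 of 45 C10 and 16 of 42 SVEC cells. All 44 C10 cells that had Itgb1 also had a count of an alpha partner, as did 32 of the 35 SVEC cells with Itgb1.

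In the C10 input series the common chains were found in every pool, and single chains came and went between libraries. In pools of several cells, fewer cells making a transcript and less transcript per cell cannot be told apart. Itgb1 lay between 0 and 942 CPM over the 1-cell libraries (median 154), between 310 and 1079.6 CPM over the 3-cell libraries (median 457) and between 229 and 472 CPM over the 10-cell libraries (median 386). The range narrowed toward 10 cells and the groups overlapped. The 1-cell libraries without Itgb1 were replicates 1 and 10, and replicate 1, the shallowest of the series at 430798 counts, had no count of any member but Itga5.

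Itga3 was in all 12 libraries of 3 and 10 cells, from 38.9 to 200 CPM at 3 cells (median 46.7) and from 32.4 to 179 CPM at 10 cells (median 60.3). Itgav was in the same 12, from 4.54 to 180 CPM at 3 cells (median 90.2) and from 10.3 to 274 CPM at 10 cells (median 51.9). Itgb5 was in the same 12 too, from 1.71 to 59.1 CPM at 3 cells (median 26.5) and from 18.5 to 62.6 CPM at 10 cells (median 29.5). In each of these 3 genes the 3-cell and 10-cell ranges overlapped. At 1 cell the same genes dropped to 0 in 2 (Itga3), 3 (Itgav) and 1 (Itgb5) of the 8 libraries.

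Itga5 was more even at 10 cells. It ran from 0 to 29.7 CPM at 3 cells (median 2.04), with replicate 6 far above the rest, and from 9.24 to 29.5 CPM at 10 cells (median 14.8). Over the 1-cell libraries it was from 0 to 20.8 CPM (median 0.487). Itga6 was at 0 to 0.167 CPM in the 1-cell libraries, reached 3.59 CPM in 1 of the 3-cell libraries and 52.8 CPM in 1 of the 10-cell libraries, where the median was 3.20 CPM. Itgb4 was counted in all 6 libraries of 10 cells, but at 0.0677 to 0.842 CPM in 5 of them and 15.5 CPM in replicate 5. Itgb3 was counted in 1 library of 3 cells and 2 of 10 cells, Itga1 in 2 and 4, and Itga2 in none of the 20 libraries.

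No integrin gene differed between 10-cell and 3-cell libraries past the threshold. edgeR's quasi-likelihood test over 13602 genes, with Benjamini-Hochberg adjusted p under 0.05, called 0 genes (0%), with 1592 genes at an unadjusted p under 0.05. DESeq2 called 564 genes, with 1588 at an unadjusted p under 0.05, and limma 0 with 1405, and no integrin gene was called by either, although DESeq2 gave no p-value for Itgb4 and Itga1. Of the 8 integrin genes tested, Itga1 had the lowest p, with a log2 difference of -4.68 for 10 over 3 cells (SE 2.01, unadjusted p = 0.0351, adjusted p = 0.347, edgeR). In it 1 library of 3 cells (replicate 9, at 15.3 CPM) held 98.3% of the counts of its group. Itgb1 had a log2 difference of -0.63 (SE 0.30, adjusted p = 0.433, edgeR). For Itga3 the log2 difference was -0.18 (SE 0.58) and for Itgav -0.26 (SE 0.84). On counts simulated for this comparison, a log2 change of 4 was recovered by edgeR in 18% of 194 genes and a log2 change of 8 in 61.7% of 193, so most changes of the former size would be missed at this spread.

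**Figure D4:**
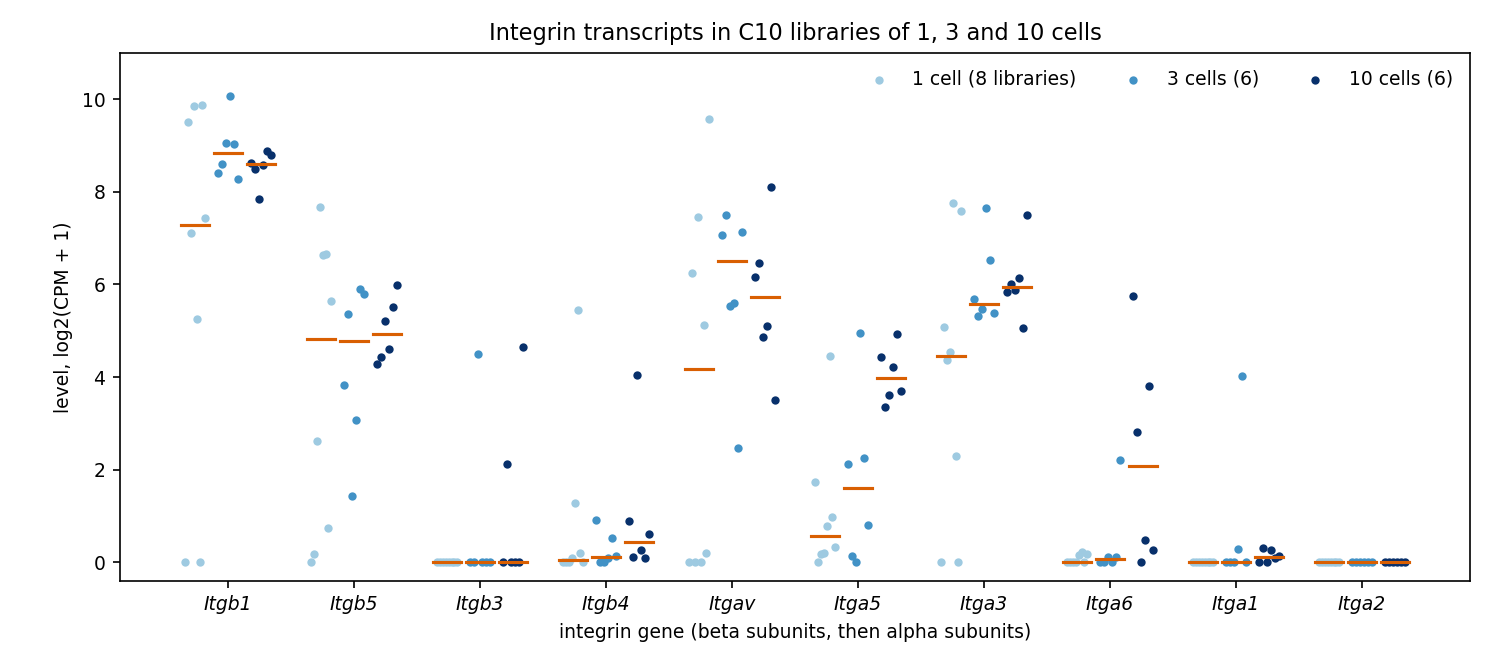
Level of each integrin gene as log2(CPM + 1) in C10 libraries of 1 cell (8), 3 cells (6) and 10 cells (6); points are libraries and bars medians. Itgb1 lies between 229 and 472 CPM in all libraries of 10 cells and between 0 and 942 CPM in those of 1 cell.

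Pooling cells filled in the pairs. Itga3 with Itgb1, Itgav with Itgb1 and Itgav with Itgb5 were scored in all 6 libraries of 3 cells and all 6 of 10 cells, and Itga5 with Itgb1 in 5 and 6. Over the 8 libraries of 1 cell the pairs of Itgb1 with Itga3 and with Itga5, and Itgav with Itgb5, were scored in 5 each, and Itgav with Itgb1 in 4. Itga6 with Itgb4 was scored in 5 of 6 libraries of 10 cells, but in none with at least 5 counts and 1 CPM of both chains. Itga1 with Itgb1 was scored in 4 of 6 libraries of 10 cells and in none of them with at least 5 counts of both. Itgav with Itgb3 was scored in 2 of 6.

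Integrin genes outside the 10 were few. Of 9 other integrin genes, 2 met the rule for testing, and 1 of these, Itga2b, was at least 2-fold higher in SVEC, where 17.9% of all tested genes were. Itga2b, the alpha chain of the platelet fibrinogen receptor, was at 22.5 CPM in SVEC against 3.87 CPM in C10, in 16 of 48 and 11 of 46 cells. Itga11, a collagen receptor chain that pairs with Itgb1, was counted in 23 of 46 C10 cells at a pooled 2.49 CPM and 9 of 48 SVEC cells at 1.79 CPM. Further partners of Itgav were rare, with Itgb6 in 1 C10 cell and Itgb8 in 3 C10 cells and 1 SVEC cell. Of 7 leukocyte integrin genes, 1 met the rule (Itgae, not 2-fold apart). Itgal was at 0 in both lines. Itgb2, the shared beta chain of leukocyte integrins, was counted in 8 of 46 C10 cells (522 counts, 5.26 CPM) and in 0 of 48 SVEC cells. It did not meet the rule. No fold is given for it, since SVEC had no count. Pooled over the SVEC cells 3 counts equal 0.103 CPM, and in a median SVEC library they equal 6.90 CPM.

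Adaptors that join integrin tails to actin were looked up together with other proteins that act at the tails, such as the kinases Src and Ptk2. Of 21 such genes, 20 were tested, 4 were at least 2-fold higher in C10 and 1 in SVEC (19.1% and 17.9% of all tested genes were), and the median log2 difference of C10 over SVEC was 0.28, against -0.0028 over all tested genes. Zyx, a focal adhesion LIM protein, had 355 CPM in C10 against 49.0 CPM in SVEC (7.24-fold), and Actn1, an actin crosslinker, at 48.4 and 14.9 CPM (3.25-fold). With every library weighted equally the folds were 4.74 for Zyx and 1.55 for Actn1, which ends the latter's call. The kinase Src was at 9.49 and 3.89 CPM, a 2.44-fold difference that became 1.84-fold without C10 replicate 25 and 3.73-fold without SVEC replicate 36. Parvb, which binds the integrin-linked kinase, was low in both lines at 0.685 and 0.138 CPM, and its 4.97-fold difference ran from 2.08 without C10 replicate 18 to 9.61 without SVEC replicate 43. The call in SVEC was Tns1, a tensin, at 2.00-fold, which 44 of the 94 libraries could each end by being left out, the lowest value being 1.65 without SVEC replicate 25, and it was 1.79 with every library weighted equally. Tln1, the talin that activates integrins, had 66.1 CPM in C10 against 70.3 CPM in SVEC, and Fermt2, a kindlin with the same task, at 121 and 190.1 CPM.

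Of 18 genes of matrix ligands, 11 were tested, 2 were at least 2-fold higher in C10 and 1 in SVEC, near the 19.1% and 17.9% of all tested genes, with a median log2 difference of -0.17. Spp1, osteopontin, an RGD ligand of the Itgav receptors, had 885 CPM in C10 against 14.7 CPM in SVEC, in 41 of 46 and 3 of 48 cells. Its 60.3-fold difference was 157-fold without SVEC replicate 41. Lamb2, a laminin chain, was at 12.4 CPM in C10 cells and 40.1 CPM in SVEC cells. Fn1, fibronectin, was at 774 and 977 CPM. Of the laminin chains, Lamb3 was at 0 in both lines and Lama3 was counted in 2 C10 cells and 1 SVEC cell.

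Of 5 membrane partners of integrins, all tested, 1 was at least 2-fold higher in C10 and 0 in SVEC, where 19.1% and 17.9% of all tested genes were. Their median log2 difference was -0.10. The 1 called gene is near the share of all genes. The called gene was Cd151, a tetraspanin that binds Itga3 with Itgb1, counted in 31 of 46 C10 cells and 6 of 48 SVEC cells at 17.7 and 8.20 CPM. Its 2.16-fold difference was between 1.85 and 1.96 without C10 replicate 17, 21 or 31 and 3.28 without SVEC replicate 32, and with every library weighted equally the direction turned, at 1.08-fold higher in SVEC. Of 3 hemidesmosome genes, 2 were tested and Plec, plectin, which links Itgb4 to keratin, was 2.45-fold higher in SVEC (43.8 CPM in C10 and 107 CPM in SVEC), or 1.96-fold with every library weighted equally, which is under the limit. Col17a1, the hemidesmosomal collagen, was counted in 1 C10 cell and 2 SVEC cells.

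The genes whose levels over the 94 single cells were most like each member were taken from 5887 genes by Pearson r of log2(CPM + 1). These r values share library depth and line and are given as a description. For Itga3 the closest was the noncoding RNA Gm31340 (r = 0.677, and 0.601 in C10 and 0.699 in SVEC). For Itgb1 it was Uso1, a vesicle tethering factor (r = 0.62, with 0.264 in C10 and 0.676 in SVEC). For Itgb5 it was Sema3c, a secreted semaphorin (r = 0.516), for Itgav Ctnnal1, an alpha-catenin-like protein (r = 0.467), and for Itga5 Rassf1 (r = 0.387). The next were Gm39063 and LOC118568594 for Itga3 (r = 0.499 and 0.49), Cyp1b1 and Ptrh2 for Itgb1 (0.611 and 0.604) and Fosl2 and Tjp1 for Itgb5 (0.493 and 0.478). They were Cstf3 and Sptbn1 for Itgav (0.463 and 0.462) and, for Itga5, Uhrf1bp1l (0.386). Only these 5 members, each counted in at least 50% of a line's cells, were correlated with each other. Between them r over all 94 cells was at most 0.29, for Itgav with Itga5. Within C10 it ran from -0.31 for Itgb1 with Itga5 to 0.40 for Itgb1 with Itgb5, and in SVEC the highest was 0.30 for Itgb5 with Itga5.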

How the data were processed

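RNA was measured in 116 libraries of C10 and SVEC cells. The deposited files held whole-number read counts per gene symbol, 1 file per library in the layout of HTSeq, with 5 closing counters that were left out. FastQC, STAR and HTSeq are named, without versions, per the submitters' processing notes. The genome build, annotation and strand setting are not given in the sources used here. No molecular identifiers are described, so floors and the intervals of levels and folds cover counting error only. Intervals of shares of cells cover the drawing of cells only. Reads were single, of 150 bases, per the labels' protocols. Of 40202 symbols, 38730 were listed in RefSeq GRCm38.p6, which was used for names, overlaps and promoters, and exon lengths came from GENCODE vM21, so levels per kb assume those gene models.

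CPM values were computed from the deposited counts. Lines were compared by pooled CPM over libraries of at least 1000 counts, among genes with a count in 25% or more of either line's libraries, calling differences of at least 2-fold without a test. Intervals were exact Poisson or exact binomial at 95%. Libraries of 10 and 3 cells were compared with edgeR 4.0.16 in R 4.3.3 (TMM, genes counted in 50% of a group), with DESeq2 1.42.0 and limma 3.58.1 (pseudocount 1) as alternatives, after testing on simulated data. The p-values measure only the spread between libraries, which may be technical, since no separate cultures are named. No 2 of the 116 libraries held identical counts. No batch is given by the labels, so a batch and a line cannot be told apart. The integrin genes and all lists were chosen with earlier results of these data known. Genes named beyond them are the 3 with the highest r to each member counted in at least 50% of a line's cells. Some genes of these lists are counted in the totals and not reported here by name.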

Additional observations from a re-analysis of the deposited data

Results flagged for a closer look

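In the input series, the highest library of 14 of the 25 gene and group combinations examined stood apart from its group by Dixon's criterion. The rate of 1 in 20, or 1.25 of 25, holds for independent and normally spread values. The CPM values were skewed, several combinations held libraries without a count, and the combinations shared libraries. The 14 therefore cannot be set against 1.25 and are given as a description. All 14 were high values.

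Among the 1-cell libraries, replicate 10 held Itgb4 at 42.7 CPM (others 0 to 1.44) and Itga5 at 20.8 CPM (others 0 to 2.32), with Itgb1 at 0. Replicate 14 held Itgav at 757 CPM (others 0 to 175).

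Among the 3-cell libraries, replicate 6 was highest for 3 genes at once, with Itgb1 at 1079.6 CPM (others 310 to 530), Itga3 at 200 CPM (others 38.9 to 91.1) and Itga5 at 29.7 CPM (others 0 to 3.74). Replicate 5 held Itgb3 at 21.5 CPM where the others were at 0. Replicate 9 held Itga1 at 15.3 CPM (others 0 to 0.214), and replicate 10 Itga6 at 3.59 CPM (others 0 to 0.089).

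Among the 10-cell libraries, replicate 10 held Itgb3 at 23.9 CPM (others 0 to 3.32) and Itga3 at 179 CPM (others 32.4 to 69.9). Replicate 5 held Itgb4 at 15.5 CPM (others 0.0677 to 0.842), replicate 9 Itgav at 274 CPM (others 10.3 to 87.3) and replicate 1 Itga6 at 52.8 CPM (others 0 to 12.9).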

How the results depend on the processing

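Itga3 was at least 2-fold higher in C10 under all 7 alternatives to the pooled comparison. The number of integrin genes at least 2-fold apart was 2 of 6 tested, and became 1 of 6 with every library weighted equally (Itgav lost). It became 4 of 9 with no filter on low counts (Itgb3 and Itga1 added, both higher in SVEC). Leaving out 1 library at a time, a check chosen after seeing the data, gave 1 to 2. Over all genes the count of 3436 of 9303 became 8227 of 15901 with no filter. It was 1758 of 5888 with genes counted in 50% of a line. A further setting replaced the pooled fold by the median difference in log2(CPM + 1) between same-numbered cells, in which a cell with no count enters as 0. With it 1698 genes were called, of which 88.1% were higher in C10 against 51.6% with the pooled fold. The integrin genes called were then Itgb5 and Itga3, not Itgav. The log2 difference of Itga5 changed sign there, to 0.66. Same-numbered cells did not deviate together (mean r 0.00164, 1 of 46 closest to its own number), so the numbers do not pair the lines. Use of this setting over all genes was also added after seeing the data.

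For 10 against 3 cells, DESeq2 called 564 genes against 0 with edgeR, and the cause was not tested. The replicate block gave 0 genes, as did the other edgeR and limma settings, and same-numbered libraries did not pair (mean r 0.0162, 2 of 6 closest to their own number). Pairs scored in at least 25% of libraries numbered 7 at 3 cells, which became 4 with 5 counts of each chain, and also 4 with 5 counts and 1 CPM, a setting added after seeing the data. At 1 cell the number went from 6 to 3 with 5 counts and 1 CPM. No called integrin gene changed direction, but Cd151, called higher in C10, was 1.08-fold higher in SVEC with every library weighted equally. The 434945 counts of a median SVEC library limit what can be said of Itgb3, Itgb4, Itga1 and Itga2 in a single SVEC cell without a count. In such a library 3 counts equal 6.90 CPM, whereas pooled over the SVEC cells they equal 0.103 CPM.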
